A study of Homo sapiens with 11 samples.

Results

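The 10 genes described here belong to the insulin-like growth factor (IGF) system: the ligand gene IGF2, its neighbour H19, the receptor genes IGF1R and IGF2R, and the 6 binding protein genes IGFBP2 to IGFBP7. They were chosen by name, with earlier results of these data known, and all 10 were among the 19990 genes of the count table. The cells were cardiomyocytes derived at passage 63 from the established human iPSC (induced pluripotent stem cell) line WTC11, with the GSK3 inhibitor CHIR99021 followed by the Wnt secretion inhibitor IWP2. All wells came from a single differentiation whose share of cTnT-positive cells was checked by flow cytometry on Day 16, were kept without a further treatment in RPMI1640 with B27 that contained insulin, and were collected on Day 30 (4 wells), Day 60 (3 wells) or Day 113 (4 wells). Poly(A) RNA was sequenced as paired reads of 150 bases. Spread between wells therefore does not include differences between differentiations or between lines, and day of culture and collection cannot be told apart.

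IGF2 is a growth factor of the fetus that is expressed mainly from the paternal allele, while the adjacent H19 gives a non-coding RNA from the maternal allele and hosts the microRNA miR-675. IGF2 acts through IGF1R, a receptor tyrosine kinase that is coupled to PI3K and AKT, whereas IGF2R carries IGF2 to the lysosome and is not a growth receptor. Secreted IGF binding proteins hold the ligands outside the cell, where proteases release them, and insulin in a culture medium reaches the same signalling chain through the insulin receptor. In the embryonic heart, IGF2 from the epicardium and endocardium is known to drive the growth of the myocardium.

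Sequences are shown for the microRNA of the H19 exon, because H19 stood at the limit of detection, and for the start regions of 3 of the 4 genes called between Day 30 and Day 113. The IGFBP6 window is not printed, because GENCODE places the start of the gene among the bases before the RefSeq start. For IGFBP4 and IGFBP5 GENCODE also places the start inside the window, but after the RefSeq start. Distances below are to the RefSeq start. The mature miR-675 sequences (RefSeq, GRCh38.p14, minus strand) lie at chr11:1996800-1996822 and chr11:1996768-1996787, and capitals mark the seed, bases 2 to 8. The seeds of the arms differ.
hsa-miR-675-5p: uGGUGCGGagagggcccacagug
hsa-miR-675-3p: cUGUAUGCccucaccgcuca
The library preparation selected poly(A) RNA, so levels of mature microRNAs were not analysed here.

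The promoter windows of RefSeq (GRCh38.p14, 250 bases before to 50 after the start) covered 8 of the 10 genes; IGF2 and IGFBP7 had no entry. The bases before the start are printed 5′ to 3′ on the strand of the gene. The IGFBP4 stretch is chr17:40443200-40443449 on the plus strand, that of IGFBP5 is chr2:216695550-216695799 on the minus strand, and that of IGF1R is chr15:98648289-98648538 on the plus strand. Capitals mark matches on either strand to the 4 motifs searched. These were the TATA box, spelled TATAAA, the CCAAT box, the GC box, spelled GGGCGG, and the E-box, spelled CACGTG, and none of these overlap each other in the stretches below.
IGFBP4: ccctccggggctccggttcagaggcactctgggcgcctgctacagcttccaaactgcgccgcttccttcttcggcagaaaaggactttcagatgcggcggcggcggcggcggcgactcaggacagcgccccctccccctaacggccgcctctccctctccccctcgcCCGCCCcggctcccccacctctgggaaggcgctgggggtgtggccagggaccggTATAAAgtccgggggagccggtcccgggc
IGFBP5: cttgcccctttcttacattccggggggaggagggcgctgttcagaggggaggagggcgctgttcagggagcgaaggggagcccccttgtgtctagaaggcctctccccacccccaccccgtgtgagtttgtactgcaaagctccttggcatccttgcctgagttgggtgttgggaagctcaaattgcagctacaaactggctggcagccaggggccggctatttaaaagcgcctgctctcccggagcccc
IGF1R: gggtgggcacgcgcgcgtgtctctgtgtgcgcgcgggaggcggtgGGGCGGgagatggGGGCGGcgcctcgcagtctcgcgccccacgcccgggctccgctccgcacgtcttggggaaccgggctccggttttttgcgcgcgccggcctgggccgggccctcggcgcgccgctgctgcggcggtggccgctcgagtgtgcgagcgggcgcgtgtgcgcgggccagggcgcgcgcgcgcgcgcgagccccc
The IGFBP4 window held a TATAAA whose first base lay 29 bases before the RefSeq start, as 11.5% of 35116 RefSeq promoter windows held one, and 2 GC boxes, of which the second lies after that start. The IGF1R window held 2 GC boxes and 55 CpG dinucleotides, against a median of 14 over all windows. The IGFBP5 window held no match and 9 CpG. GC boxes occurred in 45.0% of all windows, CCAAT in 34.6% and CACGTG in 7.26%. Of the others, the IGF2R window held 6 GC boxes and 3 E-boxes with 41 CpG, the IGFBP3 window 2 GC boxes with 36 CpG, the IGFBP6 window 1 GC box with 12 CpG, and the H19 window no match with 6 CpG. IGFBP2 had 3 windows with 8, 28 and 6 CpG, of which the first 2 held 1 GC box each and the last 1 CCAAT. A match is a string of letters and says nothing of binding in these cells.

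The 11 libraries held 24.1 to 34.5 M counts (M, 1000000) and detected 18796 to 19533 genes each. Levels are counts per 1000000 (CPM) after TMM scaling, and fold changes are log2 values with their standard error from edgeR's quasi-likelihood test over all 19990 genes, where a gene is called at an adjusted p under 0.05. All 8 cardiomyocyte markers were detected, with a summed level of 26654 to 38001 CPM on Day 30, 32344 to 37163 on Day 60 and 27143 to 29956 on Day 113. The 9 fibroblast or stromal markers summed to 3357 to 7713 CPM on Day 30, 2074 to 3575 on Day 60 and 5454 to 13100.1 on Day 113, and the 8 endothelial markers to 78.0 to 106, 50.2 to 79.2 and 231 to 874. None of these 17 genes was at 0 in any well. In bulk RNA, fewer cells of a type and less RNA per cell cannot be told apart.

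IGF2 fell between Day 30 and Day 60 and stood between the levels of those days on Day 113. The 4 wells of Day 30 held 395, 419, 435 and 333 CPM, the 3 wells of Day 60 held 199.7, 280.5 and 262, and the 4 wells of Day 113 held 301, 393, 386 and 246. Every Day 60 well lay below every Day 30 well, while Day 113 overlapped both earlier days. The mean level was 396 ± 44.6 CPM (SD, n = 4), 247 ± 42.4 (n = 3) and 331 ± 70.5 (n = 4). From Day 30 to Day 60 the change was -0.68 ± 0.16 on the log2 scale (SE, adjusted p = 0.013). The call rested in part on Day 60 well 1, the lowest, without which the adjusted p was 0.084. From Day 60 to Day 113 the change was 0.42 ± 0.16 and did not pass (adjusted p = 0.068). It passed without Day 113 well 4 (adjusted p = 0.016), with DESeq2 (adjusted p = 0.041) and with the well number as a block (adjusted p = 0.0019). Day 113 differed from Day 30 by -0.26 ± 0.15 (adjusted p = 0.20), and this difference passed with the block (-0.28, adjusted p = 0.025). IGF2 was the gene at position 318 of 19990 by mean CPM on Day 30, at 635 on Day 60 and at 394 on Day 113.

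The IGF2 gene spans chr11:2129112-2158658 on the minus strand (GENCODE, GRCh38), and 26.6% of its 7686 exonic bases also belong to other annotated genes. INS-IGF2, a read-through transcript on the same strand, shares 1580 of them, and IGF2-AS, on the other strand, shares 456. INS-IGF2 and INS were not analysed here. The annotation and strand setting of the counting are not given in the sources used here, so IGF2 counts are uncertain to the extent of these bases. IGF2-AS held 3.34 ± 0.868 CPM on Day 30 (SD, n = 4), 2.81 ± 1.32 on Day 60 (n = 3) and 1.97 ± 1.14 on Day 113 (n = 4), with no called change (adjusted p of 0.84, 0.51 and 0.22). The other ligand gene in the table, IGF1, stayed at 2.73, 2.49 and 2.44 CPM on average, also without a called change.

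H19 was counted only a few times per library. Its counts were 0, 2, 11 and 20 in the wells of Day 30, 8, 0 and 1 on Day 60 and 7, 19, 4 and 9 on Day 113. Together the 11 libraries held 81 counts of H19 against 108565 of IGF2, or 1340.3 IGF2 counts for each H19 count. Wells at 0 stood next to wells at 20 on the same day, and the days overlapped. In the 2 wells at 0, up to 3 counts would be compatible with the count, for counting error only. The fitted change of H19 was -1.49 ± 1.42 from Day 30 to Day 60 (adjusted p = 0.61), 1.79 ± 1.43 from Day 60 to Day 113 (adjusted p = 0.41) and 0.30 ± 1.22 from Day 30 to Day 113 (adjusted p = 0.88), so no change was detectable at this depth. By mean CPM, H19 stood at position 18630, 19631 and 17847 of 19990 on the 3 days.

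H19 lies at chr11:1995176-2001470 on the minus strand (GENCODE). By the RefSeq spans it lies 127.85 kb from IGF2 and inside the span of MRPL23. The IGF2 to H19 ratio was taken within each library as the log2 of the counts with 0.5 added. It was 11.42 ± 2.40 on Day 30 (SD, n = 4), 11.95 ± 2.23 on Day 60 (n = 3) and 10.10 ± 1.14 on Day 113 (n = 4). The differences between days were 0.53, -1.85 and -1.32 for Day 60 against Day 30, Day 113 against Day 60 and Day 113 against Day 30. Two-sided exact permutation tests over wells gave p of 0.8, 0.229 and 0.371, or 0.8, 0.557 and 0.557 after adjustment over the 3 tests; the smallest p such a test could give was 0.0286.

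Of 18 genes listed as imprinted neighbours or as flanking genes of the same region (11p15.5), 11 were in the table. KCNQ1 was higher and CTSD lower on Day 60 than on Day 30, 2 were higher and 5 lower on Day 113 than on Day 60, and 2 were higher and 5 lower on Day 113 than on Day 30. The median change of the 11 was 0.10, -1.01 and -0.84, against -0.011, 0.0016 and -0.018 over all genes, of which 10.3%, 24% and 34.5% were called. The genes that fell to Day 113 in both comparisons were TNNT3, TSPAN32, KCNQ1OT1, CDKN1C and SLC22A18. CDKN1C, a cell cycle inhibitor expressed from the maternal allele, went from 11.04 ± 2.59 CPM on Day 30 (SD, n = 4) to 6.40 ± 1.90 on Day 60 (n = 3) and 1.75 ± 0.364 on Day 113 (n = 4), a change of -2.65 ± 0.26 over the whole course (adjusted p = 1.5e-06). KCNQ1OT1, the non-coding RNA that silences CDKN1C on the paternal allele, changed by -1.28 ± 0.23 over the course (adjusted p = 5.5e-04). It lies antisense to KCNQ1, so its counts are uncertain if strand was not used. MRPL23, whose span holds H19, rose by 0.89 ± 0.25 (adjusted p = 0.012). CD81, on the other side of IGF2, held 340.4, 304 and 354 CPM on the 3 days with no called change.

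**Figure D1:**
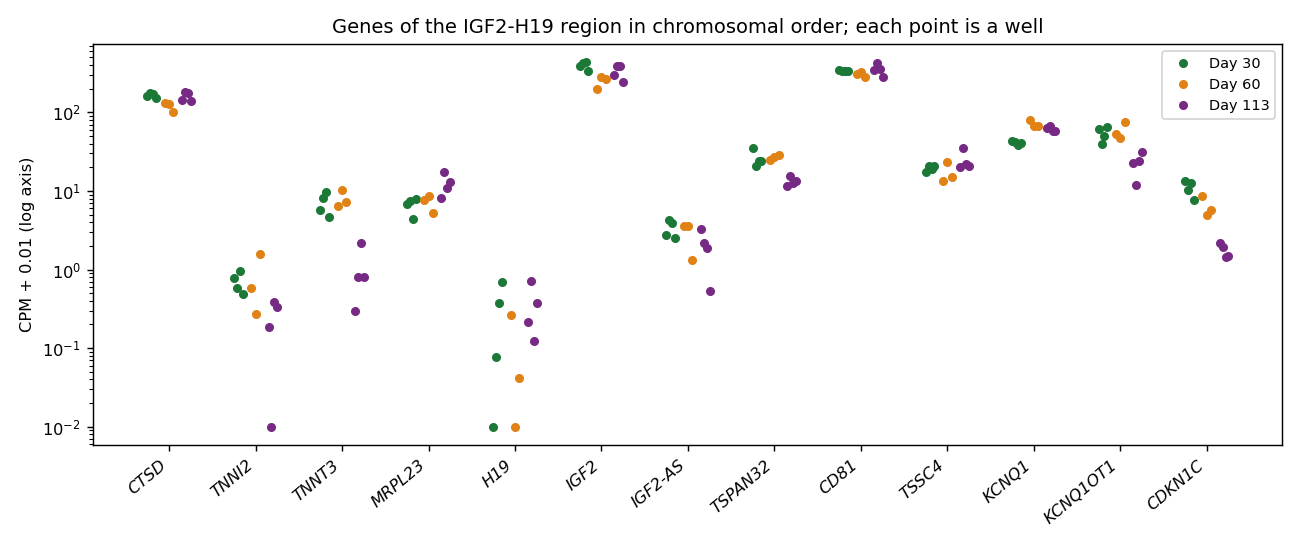
Level of 13 genes of the IGF2 and H19 region in each well, in chromosomal order, as CPM with 0.01 added on a log axis (points, wells; colours, Day 30, Day 60 and Day 113). H19 lies below 1 CPM in every well, IGF2 lies between 199.7 and 435 CPM, and CDKN1C is lower in each Day 113 well than in any earlier well.

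Known regulators of IGF2 were taken as a further list, of which 6 of 8 genes were in the table. HMGA2, a chromatin protein that acts upstream of PLAG1 and IGF2, was lower on Day 60 than on Day 30; ZNF445, PLAG1 and HMGA2 were lower on Day 113 than on Day 60; and over the course CTCF was higher while ZNF445, TRIM28 and HMGA2 were lower. Among all genes 10.3%, 24% and 34.5% were called in these comparisons. PLAG1, a zinc-finger activator of IGF2 promoters, held 72.4 ± 6.59 CPM on Day 30 (SD, n = 4), 89.1 ± 10.1 on Day 60 (n = 3) and 59.6 ± 7.29 on Day 113 (n = 4). HMGA2 went from 160.3 to 49.1 and 4.79 CPM, a change of -5.06 over the course (adjusted p = 6.3e-12). CTCF, which insulates the maternal IGF2 allele from the shared enhancers, rose by 0.28 (adjusted p = 0.049). The 3 genes for IGF2 mRNA-binding proteins, which bind IGF2 transcripts among many others, all fell from Day 30 to Day 60 and over the course. IGF2BP1 went from 216 ± 13.4 CPM (SD, n = 4) to 136 ± 18.6 (n = 3) and 86.0 ± 7.62 (n = 4), with changes of -0.67 ± 0.11 and -0.66 ± 0.11 in the intervals (adjusted p = 0.0011 and 4.6e-04). IGF2BP2 fell by 0.77 (adjusted p = 2.9e-06) and IGF2BP3 by 0.86 (adjusted p = 5.1e-05) on the log2 scale over the course.

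IGF1R, the signalling receptor, held its level to Day 60 and then dropped. Its level was 221, 183, 168 and 189.6 CPM in the wells of Day 30, 189, 176 and 186 on Day 60, and 102, 78.8, 109 and 87.1 on Day 113. All Day 113 wells lay below all wells of both earlier days, which overlapped each other. The means were 190.2 ± 22.4 (SD, n = 4), 183 ± 6.83 (n = 3) and 94.1 ± 13.6 CPM (n = 4), so Day 113 held 0.495 times the Day 30 level. The change was -0.05 ± 0.12 from Day 30 to Day 60 (adjusted p = 0.87), -0.96 ± 0.12 from Day 60 to Day 113 (adjusted p = 4.9e-05) and -1.01 ± 0.11 over the course (adjusted p = 5.0e-06). The calls of Day 113 against each earlier day were kept under each of the 21 alternatives run on them, of which the run without a low-count filter repeats the main fit. Over the same interval, from Day 60 to Day 113, the summed cardiomyocyte markers were lower in every Day 113 well than in any Day 60 well. Of the 8, MYH7 was called lower (-0.65, adjusted p = 0.0040), TNNT2 higher (0.53, adjusted p = 0.028) and 6 were not called. The fall of the sum was mostly that of MYH7, which went from 14522 ± 1242 CPM (SD, n = 3) to 9277 ± 919 (n = 4). The Day 113 sums, 27143 to 29956 CPM, lay within the Day 30 range of 26654 to 38001, while IGF1R was higher in every Day 30 well than in any Day 113 well. The part of cardiomyocyte content in the IGF1R change was not tested. IGF1R lies at chr15:98648539-98964530 on the plus strand, and none of its 13941 exonic bases overlap another annotated gene.

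IGF2R, the clearance receptor (chr6:159969099-160113507, plus strand), showed no called change between any days. It held 229, 221, 211 and 201 CPM on Day 30, 208, 175 and 158 on Day 60 and 223, 144, 197 and 167 on Day 113. The Day 30 wells were the most alike, and the days overlapped. The largest difference, from Day 30 to Day 60, was -0.26 ± 0.14 (adjusted p = 0.28). The change over the course, -0.24 ± 0.13, did not pass (adjusted p = 0.16) but passed when Day 113 well 1, the highest of its day, was left out (-0.35, adjusted p = 0.032). INSR, the insulin receptor gene, held 100.4 ± 10.7 CPM on Day 30 (SD, n = 4), 101 ± 18.2 on Day 60 (n = 3) and 119 ± 35.3 on Day 113 (n = 4), with no called change; over the course it differed by 0.24 (adjusted p = 0.30).

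**Figure D2:**
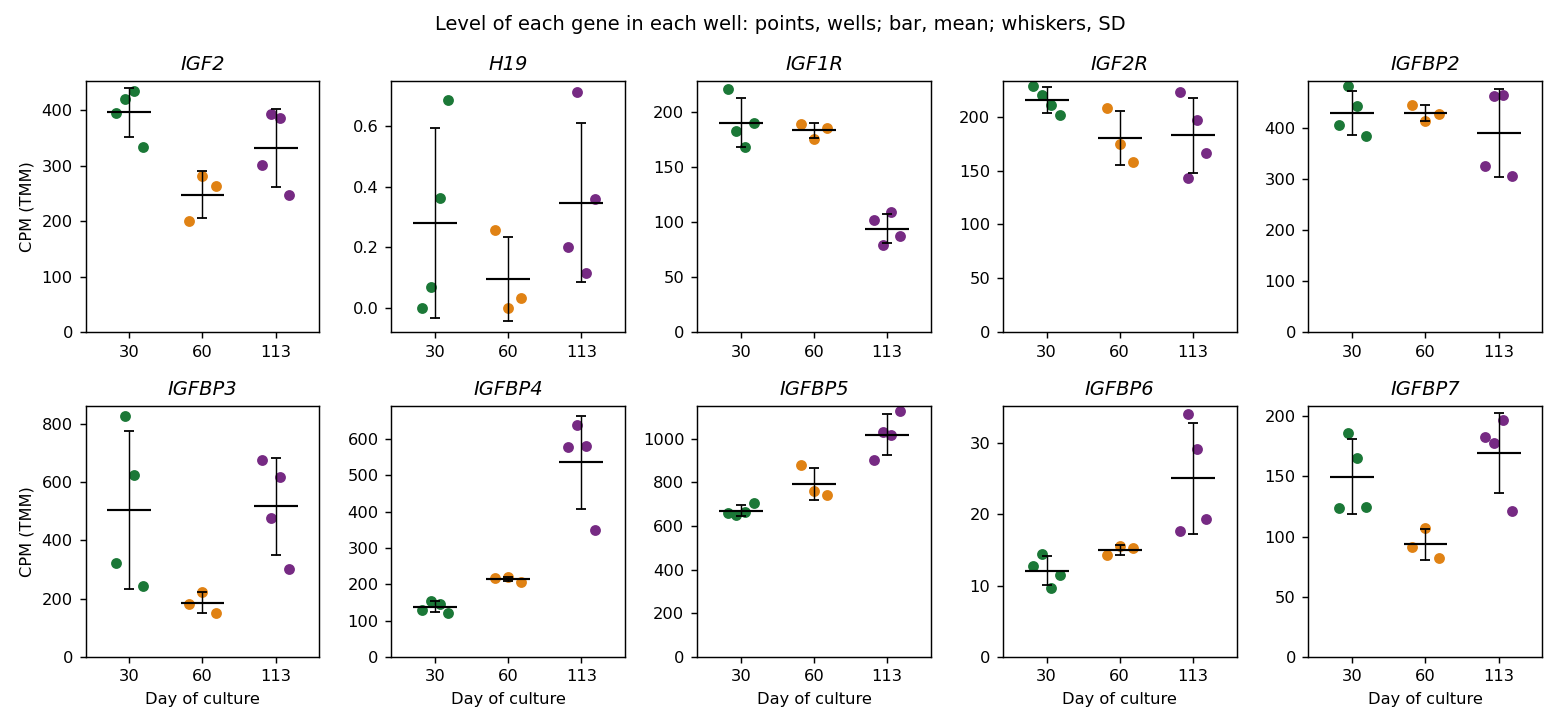
Level of each of the 10 genes in each well by day of culture, as TMM-scaled CPM (points, wells; bar, mean; whiskers, SD; 4, 3 and 4 wells). IGF1R drops on Day 113, IGFBP4 rises from day to day, IGFBP3 and IGFBP7 are lowest on Day 60, and the axis of H19 ends below 1 CPM.

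Downstream of the receptors, 30 genes of adaptors and PI3K-AKT signalling were tested. Of these, IRS1 was called between Day 30 and Day 60, 6 were higher and 1 lower on Day 113 than on Day 60, and 5 were higher and 4 lower on Day 113 than on Day 30, with medians of -0.12, 0.13 and 0.06. Over all genes 10.3%, 24% and 34.5% were called, so the number called in this list was not above the background. The genes for the main receptor substrates both fell. IRS1 went from 53.3 ± 5.40 CPM (SD, n = 4) to 29.7 ± 1.80 (n = 3) and 24.2 ± 5.64 (n = 4); the first interval gave -0.84 ± 0.16 (adjusted p = 0.0038) and the second -0.29 ± 0.16 (adjusted p = 0.21), and the difference between them, 0.55 ± 0.29, was not called (adjusted p = 0.27). IRS2 went from 28.5 ± 3.17 CPM (n = 4) to 23.3 ± 3.70 (n = 3) and 11.1 ± 2.21 (n = 4), with -0.29 ± 0.17 in the first interval (adjusted p = 0.34) and -1.07 ± 0.17 in the second (adjusted p = 3.6e-04). Whether the changes of IRS1 and IRS2 differed from each other was not tested. PIK3R1 and PIK3R3, which encode regulatory subunits of PI3K, rose over the course by 0.57 (adjusted p = 3.6e-04) and 1.12 (adjusted p = 0.0042). FOXO1, a transcription factor that AKT holds out of the nucleus, rose by 0.68 from Day 60 to Day 113 (adjusted p = 0.016).

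The 6 binding protein genes took different courses, and the calls among the 10 genes were theirs (except for IGFBP2) and those of IGF2 and IGF1R. From Day 30 to Day 60, 4 of the 10 genes were called: IGFBP4 was higher and IGF2, IGFBP3 and IGFBP7 were lower, where 10.3% of all genes were called (4.39% higher and 5.91% lower). In 5 genes, these 4 and IGFBP5, the wells of those days did not overlap, as in 24.8% of all genes. From Day 60 to Day 113, 6 were called: IGFBP3, IGFBP4, IGFBP5, IGFBP6 and IGFBP7 were higher and IGF1R was lower, where 24% of all genes were called (12.9% higher and 11.1% lower). The same 6 did not overlap, as 30.6% of all genes. Between Day 30 and Day 113, 4 were called: IGFBP4, IGFBP5 and IGFBP6 were higher and IGF1R was lower, where 34.5% of all genes were called (17.3% higher and 17.2% lower). These 4 did not overlap, as 35.1% of all genes, so over the whole course the number called was close to the background. The median change of the 10 genes was -0.15, 0.58 and 0.11 in the 3 comparisons.

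**Figure D3:**
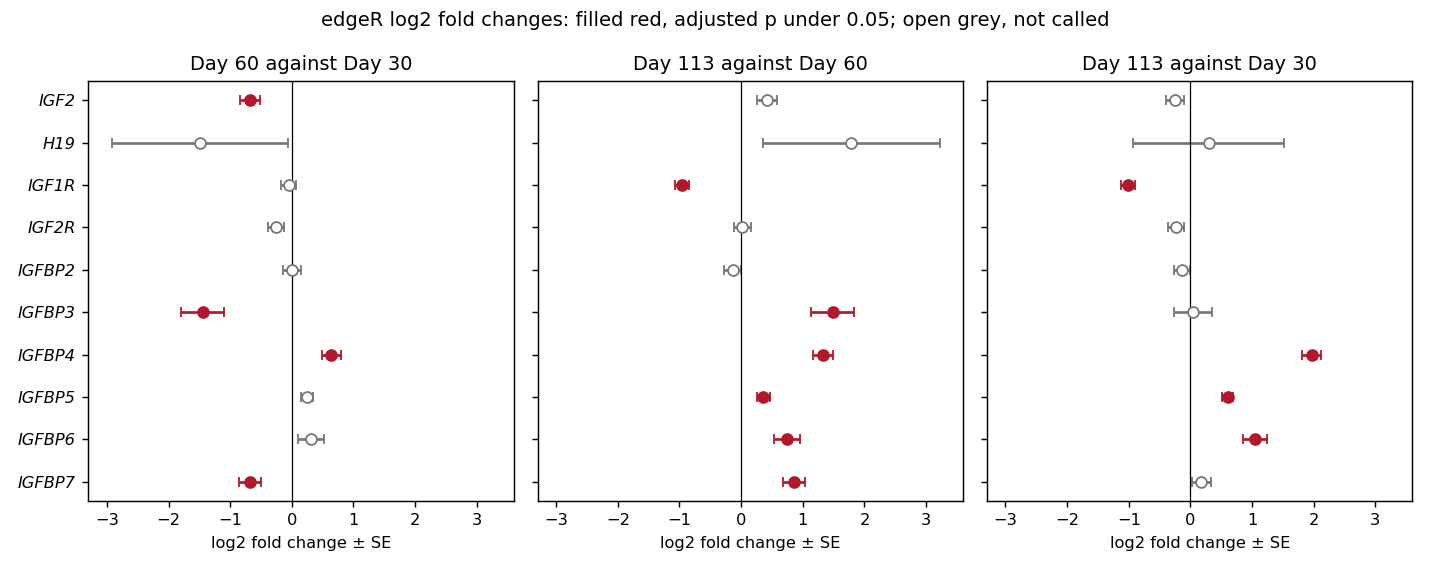
Log2 fold change of each gene with its standard error (edgeR) for Day 60 against Day 30, Day 113 against Day 60 and Day 113 against Day 30 (filled, adjusted p under 0.05; open, not called). IGFBP3, IGFBP7 and IGF2 lie left of 0 in the first panel and right of 0 in the second, where IGF2 is not called, and H19 has the widest error.

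IGFBP4, which holds IGFs until the protease PAPPA cleaves it, rose in both intervals. Its level was 128, 154, 146 and 121 CPM in the wells of Day 30, 217, 219 and 207 on Day 60, and 577, 639.6, 581 and 349 on Day 113. No day overlapped another, and Day 113 well 4 was the lowest of its day. The means were 137 ± 15.3 (SD, n = 4), 214 ± 6.30 (n = 3) and 537 ± 128 CPM (n = 4), which made Day 113 3.91 times Day 30. The change was 0.64 ± 0.16 to Day 60 (adjusted p = 0.016), 1.33 ± 0.16 from Day 60 to Day 113 (adjusted p = 5.1e-05) and 1.97 ± 0.15 over the course (adjusted p = 1.4e-07). The first call was marginal: it ended without Day 30 well 1 (adjusted p = 0.05027) or Day 60 well 2 (adjusted p = 0.05036). By mean CPM, IGFBP4 moved from position 1457 of 19990 on Day 30 to 777 on Day 60 and 196 on Day 113. The gene lies at chr17:40443461-40457731 on the plus strand.

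IGFBP5, which also binds extracellular matrix, had the highest mean CPM of the 10 genes on each day, although IGFBP3 exceeded it in Day 30 well 2. The wells held 662, 653, 665 and 705 CPM on Day 30, 879.5, 760.3 and 742 on Day 60, and 902, 1031, 1018 and 1128 on Day 113. The days did not overlap. The means were 671 ± 23.3 (SD, n = 4), 794 ± 74.8 (n = 3) and 1020.1 ± 92.6 CPM (n = 4). The first interval gave 0.24 ± 0.10 (adjusted p = 0.15), the second 0.36 ± 0.10 (adjusted p = 0.017), and the whole course 0.60 ± 0.09 (adjusted p = 1.3e-04). The second call ended without Day 60 well 2 (adjusted p = 0.063) or well 3 (adjusted p = 0.094), and with the Day 60 and Day 113 wells alone in the fit (adjusted p = 0.064). IGFBP5 lies at chr2:216672105-216695525 on the minus strand, next to IGFBP2 at chr2:216632828-216664436 on the plus strand, and 4.63% of its exonic bases overlap a gene on the other strand.

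IGFBP2, a binding protein abundant in fetal tissues, showed no called change. It held 406, 484, 444 and 386 CPM on Day 30, 446, 415 and 428 on Day 60, and 325, 464, 465 and 306 on Day 113. The Day 60 wells lay within the range of Day 30, and the Day 113 wells fell into a higher and a lower pair. The change over the course was -0.14 ± 0.13 (adjusted p = 0.46). Whether IGFBP2 and its neighbour IGFBP5 changed differently was not tested.

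IGFBP6, which prefers IGF2 over IGF1, was the binding protein gene with the lowest level and rose to Day 113. It held 12.7, 14.4, 9.64 and 11.5 CPM on Day 30, 14.2, 15.51 and 15.2 on Day 60, and 17.7, 34.0, 29.1 and 19.3 on Day 113. All Day 113 wells lay above all earlier wells. The change was 0.31 ± 0.21 to Day 60 (adjusted p = 0.43), 0.74 ± 0.21 from Day 60 to Day 113 (adjusted p = 0.019) and 1.05 ± 0.20 over the course (adjusted p = 6.2e-04). The call of the second interval ended without any one of Day 60 well 1, Day 60 well 3, Day 113 well 2 and Day 113 well 3 (adjusted p of 0.071, 0.055, 0.051 and 0.052), while that of the whole course was kept under all 21 alternatives. The gene lies at chr12:53097436-53102345 on the plus strand.

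IGFBP3, the main carrier of IGFs in serum, had the largest SD of the 6 binding protein genes on Day 30 and Day 113. The Day 30 wells held 322, 829.6, 626 and 243 CPM, the Day 60 wells 182, 223 and 151, and the Day 113 wells 676, 477, 618 and 301. Day 60 lay below both other days without overlap, and Day 30 and Day 113 covered much the same range. The means were 505 ± 272 (SD, n = 4), 185 ± 36.1 (n = 3) and 518 ± 167 CPM (n = 4). The change was -1.45 ± 0.35 to Day 60 (adjusted p = 0.014), 1.48 ± 0.35 from Day 60 to Day 113 (adjusted p = 0.0063) and 0.04 ± 0.31 over the course (adjusted p = 0.95). The fall to Day 60 was no longer called without Day 30 well 2, Day 60 well 1 or Day 60 well 3 (adjusted p of 0.055, 0.061 and 0.086) or with robust dispersions (adjusted p = 0.093), and the rise that followed was kept under all 21 alternatives. IGFBP3 lies at chr7:45912245-45921874 on the minus strand.

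IGFBP7, a secreted relative with low affinity for IGFs that is known from vessels and stroma, followed a like course. The wells held 124, 186, 165 and 124 CPM on Day 30, 91.3, 107 and 81.8 on Day 60, and 183, 177, 197 and 121 on Day 113. Day 60 lay below both other days, which overlapped. The change was -0.68 ± 0.17 to Day 60 (adjusted p = 0.019), 0.86 ± 0.17 from Day 60 to Day 113 (adjusted p = 0.0023) and 0.18 ± 0.16 over the course (adjusted p = 0.43). The fall was no longer called without Day 30 well 2, Day 30 well 3, Day 60 well 1 or Day 60 well 3 (adjusted p of 0.080, 0.057, 0.077 and 0.11). The gene lies at chr4:57030773-57110385 on the minus strand, and 18.9% of its 1930 exonic bases overlap genes on the other strand, POLR2B and IGFBP7-AS1, which bears on its counts if strand was not used.

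Markers of stromal and endothelial cells moved over the same days. Of the 9 stromal markers, 3 were lower on Day 60 than on Day 30 (COL1A2, LUM and PDGFRA) and POSTN was higher; on Day 113, 6 were higher than on Day 60 and PDGFRA was lower; over the course 5 were higher and 2 lower. COL1A1, a collagen gene of stromal cells, changed by -1.06 to Day 60 (adjusted p = 0.051) and by 1.93 from Day 60 to Day 113 (adjusted p = 8.1e-04). All 8 endothelial markers were higher on Day 113 than on Day 60 and than on Day 30, and EGFL7 alone was lower on Day 60 than on Day 30. Of all genes, 4.39% were called higher and 5.91% lower for Day 60 against Day 30. These shares were 12.9% and 11.1% for Day 113 against Day 60, and 17.3% and 17.2% over the course. Most of the stromal sum came from COL1A1, COL1A2 and COL3A1. Their means were 1681, 1414 and 2221 CPM on Day 30 and 3076, 2112 and 3623 on Day 113. The highest mean of any other stromal marker on any day was 195 CPM (POSTN, Day 113). The summed stromal level ranked the wells as IGFBP3 did on Day 30 (2, 3, 1, 4 from the top) and on Day 113 (1, 3, 2, 4). The summed endothelial level gave the IGFBP3 order on all 3 days. IGFBP2 and IGFBP4 had the same well order as both sums on Day 30. Over the Day 30 and Day 113 wells, the stromal sum matched the well order in 4 of 20 comparisons with the 10 genes. The endothelial sum ranked the wells of those days as the stromal sum did, so its 4 of 20 are the same matches. The 7 marker lists together matched in 11 of 140, which counts these matches for both sums. On Day 60, with 3 wells, 12 of 70 orders matched. IGFBP2, IGFBP3 and IGFBP4 also shared their Day 30 order, and the number of matches to be had by chance was not computed. The other matches with 4 wells were IGF1R with the cardiomyocyte sum and IGFBP7 with the pluripotent sum on Day 30, and IGFBP3 with the smooth muscle sum on Day 113. The part of stromal or endothelial cells in the levels of IGFBP3, IGFBP4, IGFBP5, IGFBP6, IGFBP7 and IGF2 was not tested. Endoderm or hepatic markers summed to 467 to 1362 CPM on Day 30, 47.4 to 58.1 on Day 60 and 26.7 to 46.9 on Day 113, with 9 of 10 lower on Day 60 than on Day 30, over the interval in which IGF2, IGFBP3 and IGFBP7 fell, and their part was not tested either. On Day 113, 1 to 4 of the 10 were at 0 in each well, FOXA2 and HNF4A most often. Epicardial markers summed to 104 to 149, 156 to 209.8 and 189 to 259 CPM, and smooth muscle or pericyte markers to 768 to 952, 719 to 829.7 and 771 to 1259.

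**Figure D4:**
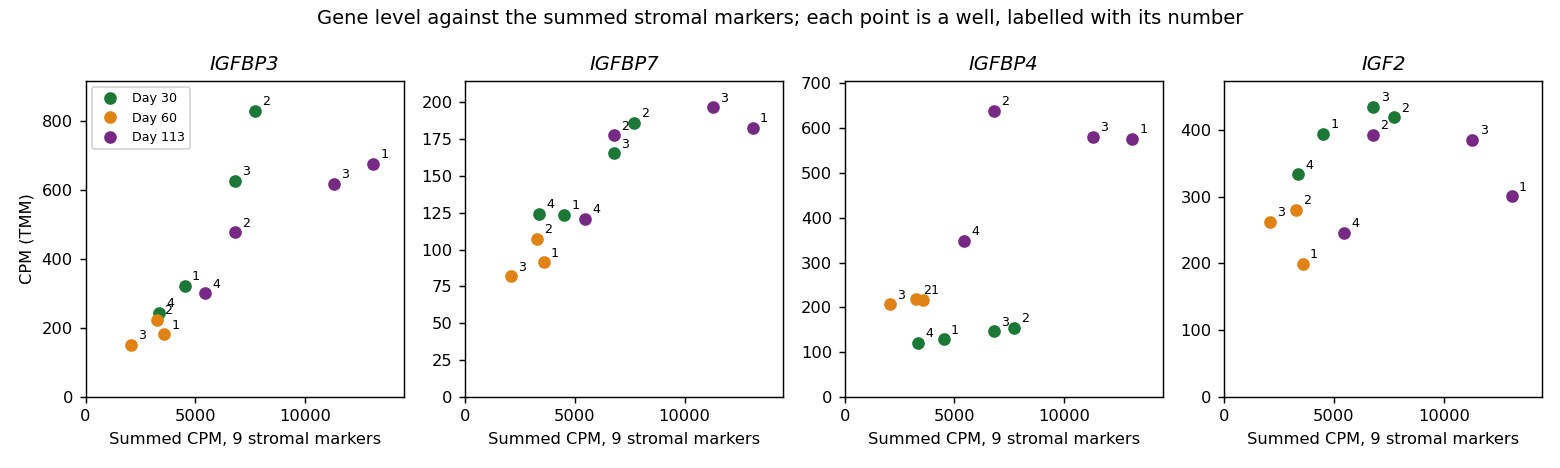
Level of IGFBP3, IGFBP7, IGFBP4 and IGF2 (CPM) against the summed CPM of 9 stromal markers, 1 point per well with its number, coloured by day. Most of that sum comes from COL1A1, COL1A2 and COL3A1. Day 60 wells, with 2074 to 3575 CPM of stromal markers, hold the lowest IGFBP3 and IGFBP7 levels. The Day 113 wells, with 5454 to 13100.1 CPM of stromal markers, hold the highest IGFBP4 levels. Day 30 wells 2 and 3, with 7713 and 6800 CPM of stromal markers, exceed Day 113 wells 2 and 4 in that sum. They hold only 154 and 146 CPM of IGFBP4, against 639.6 and 349.

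Whether a gene changed differently in the intervals was tested as the change from Day 60 to Day 113 minus the change from Day 30 to Day 60, which share the Day 60 wells. The second interval was longer and the changes were not scaled to days, so a constant daily rate would also give a difference. This difference was called for 4 of the 10 genes, against 9.34% of all genes. It was 2.93 ± 0.65 for IGFBP3 (adjusted p = 0.011), 1.54 ± 0.32 for IGFBP7 (adjusted p = 0.0071), 1.10 ± 0.29 for IGF2 (adjusted p = 0.027) and -0.91 ± 0.21 for IGF1R (adjusted p = 0.013). For IGFBP4 it was 0.69 ± 0.29 and did not pass (adjusted p = 0.15). It passed without Day 113 well 4 (adjusted p = 0.011) and with the well number as a block (adjusted p = 0.012). Single wells ended these calls. Without Day 60 well 3 the adjusted p of the 4 genes was 0.054 to 0.081, and without Day 60 well 1 IGFBP7 was still called while IGF2, IGF1R and IGFBP3 were not (adjusted p of 0.17, 0.064 and 0.064). The IGF2 difference also ended without Day 30 well 2 (adjusted p = 0.058) or well 3 (adjusted p = 0.051), and that of IGFBP3 with robust dispersions (adjusted p = 0.072).

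Levels were also divided by the kb of exon of each gene, taken as the union of all its annotated exons (GENCODE). On this scale binding protein genes were the most abundant of the group on each day. On Day 30 the order from the top was IGFBP3 with 111 ± 59.5 CPM per kb (SD, n = 4), IGFBP5 with 104 ± 3.62, IGFBP2 with 90.2 ± 9.09, IGFBP7 with 77.6 ± 16.1, IGFBP4 with 62.5 ± 6.95 and IGF2 with 51.5 ± 5.80. Each of these overlapped the next over its wells. A gap followed to IGF1R with 13.6 ± 1.61, which overlapped IGF2R with 12.1 ± 0.665, and then came IGFBP6 with 8.97 ± 1.50 and H19 with 0.0963, each apart from the gene above it. On Day 60 the order began with IGFBP5 at 123, IGFBP4 at 97.3 and IGFBP2 at 90.2 CPM per kb, which did not overlap, and IGFBP3 had moved to the fifth place at 40.5, overlapping both its neighbours IGFBP7 and IGF2. On Day 113 IGFBP4 led with 244, followed by IGFBP5 with 158, IGFBP3 with 113, IGFBP7 with 87.8 and IGFBP2 with 81.9, each overlapping the next, and IGF2 stood apart below them at 43.1. IGF1R was then the lowest gene but H19, at 6.75, below IGFBP6 at 18.6 and IGF2R at 10.2. The lengths come from an annotation that may not be the one used for counting. A union of exons can also be longer than the transcripts present in the cells. The order of the genes and their overlaps therefore depend on the lengths used.

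IGFBP4 took a growing share of the summed binding protein mRNA. Its share of the CPM per kb of the 6 genes was 13.9 ± 1.18% on Day 30 (SD, n = 4), 23.7 ± 0.641% on Day 60 (n = 3) and 34.3 ± 3.65% on Day 113 (n = 4). The share of IGFBP3 was 23.1 ± 8.36%, 9.83 ± 1.58% and 15.9 ± 3.71%, that of IGFBP2 20.1 ± 1.94%, 22.0 ± 1.29% and 11.6 ± 1.52%, and that of IGFBP7 17.1 ± 0.449%, 11.8 ± 1.27% and 12.4 ± 0.762%. IGFBP5 made up 23.7 ± 5.15%, 29.98 ± 1.98% and 23.2 ± 6.16%, and IGFBP6 at most 3.29% in any well. The sum of the 6 was 454 ± 89.3 CPM per kb on Day 30, 411 ± 21.9 on Day 60 and 704 ± 111 on Day 113. Shares of a sum are not independent of each other, and they were not tested. Their size also depends on the exon lengths used.

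**Figure D5:**
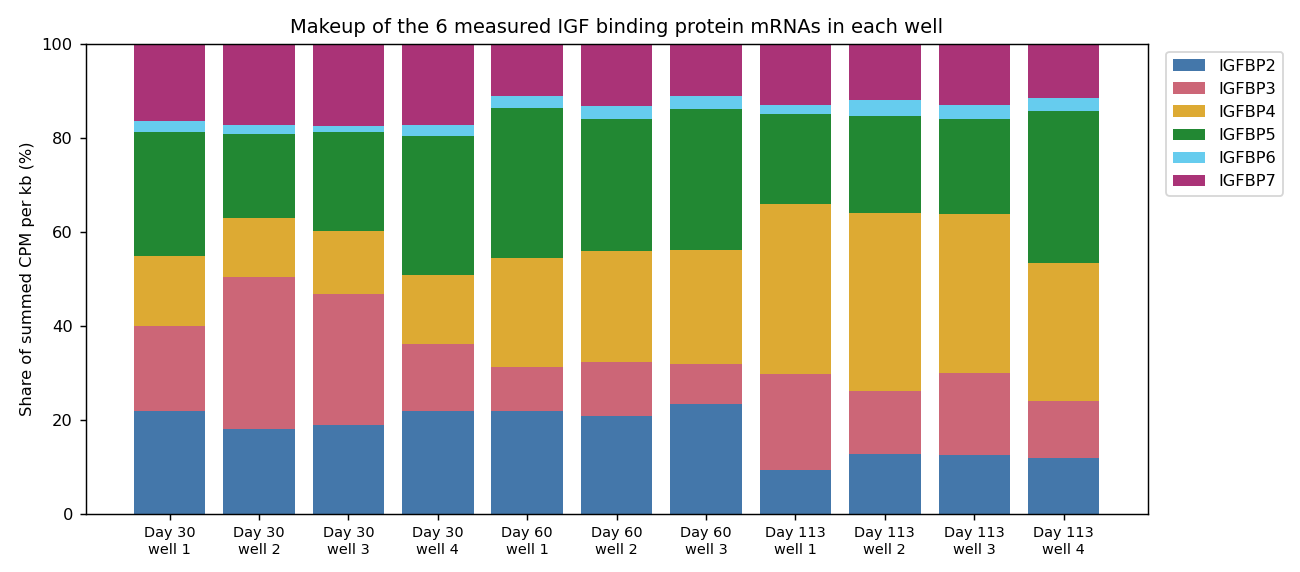
Share (%) of each of the 6 binding protein genes in their summed CPM per kb, 1 stacked bar per well, grouped by day. The IGFBP4 segment grows from a mean of 13.9% on Day 30 to 34.3% on Day 113, and the IGFBP3 segment is smallest on Day 60.

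Of 10 listed genes for other binding proteins, partners and proteases, 2 (PAPPA and STC1) were called between Day 30 and Day 60, both lower, 2 were higher and 1 lower on Day 113 than on Day 60, and 1 was higher and 3 lower on Day 113 than on Day 30, with medians of -0.51, 0.46 and -0.16. These numbers stand beside the 10.3%, 24% and 34.5% of all genes called, and those of the last 2 comparisons are near that background. PAPPA, the protease of IGFBP4, had its lowest mean on Day 60: it held 20.0 ± 4.42 CPM on Day 30 (SD, n = 4), 8.19 ± 2.47 on Day 60 (n = 3) and 13.1 ± 5.22 on Day 113 (n = 4). PAPPA changed by -1.29 ± 0.31 to Day 60 (adjusted p = 0.014) and by 0.68 ± 0.31 after it (adjusted p = 0.12), and the difference between the intervals was called (1.97 ± 0.56, adjusted p = 0.039). PAPPA2, which cleaves IGFBP5 and IGFBP3, rose by 0.60 from Day 60 to Day 113 (adjusted p = 0.046). STC1, a secreted inhibitor of PAPPA, fell to Day 60 by 0.59 on the log2 scale (adjusted p = 0.0498) and differed over the course by -0.66 ± 0.17 (adjusted p = 0.0057). ADAM12, a metalloprotease that cleaves IGFBP3 and IGFBP5, rose from Day 60 to Day 113 by 1.50 ± 0.34 (adjusted p = 0.0050). HTRA1, a secreted serine protease, changed by -0.62 ± 0.12 over the course (adjusted p = 0.0011), and IGFBPL1, a binding protein relative, by -1.08 ± 0.22 (adjusted p = 0.0013).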

How the data were processed

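RNA of 11 wells on 3 days was measured. The authors deposited whole-number read counts of 19990 genes without normalization; per the submitters' processing notes, STAR 2.5.3a, featureCounts 2.0.3 and hg38 were used, and the annotation and strand setting are not given in the sources used here. They also deposited TPM values, which were not used beyond a check. The check divided counts by TPM row by row, without matching gene names or removing library scale. It therefore cannot tell whether the TPM values fit the counts, and its outcome is not read here. No gene had fewer than 35 counts in all.

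Counts were tested with edgeR 4.0.16 (R 4.3.3) by the quasi-likelihood test, with TMM scaling (factors 0.966 to 1.04), day as the only factor, all 11 wells in a single fit (8 residual degrees of freedom) and Benjamini-Hochberg adjustment over 19990 genes at a threshold of 0.05. A low-count filter (filterByExpr, minimum count 10) left out 0 genes. Standard errors were obtained from the fold change and its F statistic. The step was also run on simulated data, with changes added on Day 113 and read for Day 113 against Day 30 only. The outcome is not reported here. Wells of a day differed well beyond sampling noise (chi-square over its degrees of freedom 11.7 to 88.7), so each was kept as a replicate. The libraries carry no molecular identifiers, so limits from counts of 0 cover counting error only.

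The 10 genes, the pathway lists and the marker lists were chosen with earlier results of these data known. All 10 genes are named; a list gene is named where it was called between at least 1 pair of days with a mean CPM of at least 5 on the higher day, or where it overlaps or neighbours 1 of the 10; INSR was also named, and single markers were named after their values were seen. Alternatives were other scalings, DESeq2 1.42.0, limma-voom (limma 3.58.1), robust dispersions, other filters, the 2 days compared alone, each well left out, the well number as a block, and, chosen after seeing the data, an adjusted p under 0.01. The alternative with no filter repeats the main fit, because the filter left out 0 genes. It is counted in all totals of alternatives, where its agreement was fixed in advance. Exon lengths and overlaps are from GENCODE on GRCh38, and sequences from RefSeq tables. Some list genes that this rule selected are not reported here.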

Additional observations from a re-analysis of the deposited data

Results flagged for a closer look

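In 4 of the 10 genes the change from Day 60 to Day 113 differed from the change from Day 30 to Day 60 by the edgeR test of the difference itself. The intervals differ in length, and the changes were not scaled to days. In IGFBP3 the difference was 2.93 on the log2 scale, from a change of -1.45 in the first interval to 1.48 in the second. In IGFBP7 it was 1.54, from -0.68 to 0.86. In IGF2 it was 1.10, from -0.68 to 0.42, of which the second change was not called. In IGF1R it was -0.91, from -0.05 to -0.96. The intervals share the 3 Day 60 wells, and without Day 60 well 3 none of these 4 differences was called (adjusted p = 0.078 for IGFBP3, 0.058 for IGFBP7, 0.081 for IGF2 and 0.054 for IGF1R). No single well of the 10 genes was an outlier within its day by Dixon's test, which days of 4 wells allow and the 3 wells of Day 60 do not.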

How the results depend on the processing

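Of 824 values of the 10 genes under alternatives, 764 kept their direction and side of the threshold, 28 lost a call, 7 gained one and 25 changed sign; no called change reversed. The number of genes called for Day 60 against Day 30 (4 of 10) ranged from 1 to 4 with each well left out and was 0 at an adjusted p under 0.01; for the difference between intervals (4) it ranged from 0 to 5 and was 1 at that threshold. List genes called for Day 60 against Day 30 (9) ranged from 6 to 13 with each well left out and were 14 with only the 2 days compared in the fit; for Day 113 against Day 60 (22) they ranged from 14 to 27, with the lowest count without Day 60 well 1, and were 12 at an adjusted p under 0.01. The IGF2 to H19 ratio for Day 60 against Day 30 (0.53) ranged from -0.44 to 1.74 with each well left out and was -0.31 with the replicate block.

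Uncalled values near 0 changed sign. IGFBP2 for Day 60 against Day 30 was 0.015 with RLE scaling, 0.039 with upper-quartile scaling, 0.015 with DESeq2, 0.0044 with limma-voom, 0.033 with a filter at 1 CPM in 3 wells, 0.018 with only the 2 days compared, and -0.0489 to 0.0831 with each well left out. IGF2R for Day 113 against Day 60 was -0.0453 with upper-quartile scaling, -5.84e-04 with the filter, and -0.0910 to 0.126 with each well left out. With each well left out, IGF1R for Day 60 against Day 30 ranged from -0.108 to 0.0281, H19 for Day 113 against Day 30 from -0.32 to 1.23, IGFBP3 for Day 113 against Day 30 from -0.19 to 0.39, and the IGFBP5 difference between intervals from -0.0058 to 0.25. The cause was not tested.

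Same-numbered wells of different days were not paired by the labels, and their deviations correlated at 0.0188 to 0.0571 (differently numbered, -0.0633 to 0.0394). With the replicate block, 4, 7 and 5 of the 10 genes were called in the 3 pairs of days and 5 for the difference between intervals: IGF2 was gained for Day 113 against Day 60 (adjusted p = 0.0019) and Day 113 against Day 30 (-0.28, adjusted p = 0.025), and IGFBP4 for the difference (0.90, adjusted p = 0.012). All 10 same-numbered pairs of wells correlated positively. Day 30 well 3 nonetheless correlated more with Day 60 well 2 (0.0223) than with Day 60 well 3 (0.0188). Day 30 well 4 correlated more with Day 113 well 1 (0.0350) than with Day 113 well 4 (0.0269). H19 dropped out under the 1 CPM filter, and its ratio could not be given without an added count because 2 wells held 0. Depth limits H19 alone among the 10 genes: IGF2 had 6138 to 13516 counts in each library.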

Other observations

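Over the 11 wells, the genes with a mean of at least 5 CPM whose log2 level followed IGF2 most closely were SLC25A15 (Pearson r of 0.944), ARHGEF18 (0.939), RUNX1 (0.919), CEBPD (0.915) and TMEM186 (0.911), out of 11945 compared. SLC25A15 encodes a mitochondrial ornithine carrier, and RUNX1 and CEBPD encode transcription factors. For H19, whose counts are sparse, the closest of 11946 genes were CCDC106 (0.839), NDUFAF2 (0.838), PCID2 (0.832), CCNC (0.830) and ZNF7 (0.823). The wells share a differentiation and the 3 days, and the genes were picked as the highest of many, so these values describe the wells and carry no test.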
